A study of Mus musculus with 24 samples.

Results

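Hcn2, Hcn3 and Hcn4 encode pore-forming subunits of hyperpolarization-activated cyclic nucleotide-gated (HCN) channels, and Pex5l encodes TRIP8b, their auxiliary subunit. These 4 genes were taken by their GENCODE symbols from the 18647 genes of the count table, all 4 passed the filter on low counts, and they were followed in every library. The libraries were polyA mRNA from the CA1 region of the hippocampus, microdissected from coronal brain slices of C57Bl/6N mice at least 60 days old (Charles River). In the SE groups, status epilepticus (SE) was induced with 335 mg/kg pilocarpine hydrochloride after pretreatment with 1 mg/kg scopolamine methyl nitrate, and CA1 was collected 6, 12, 24, 36 or 72 h later. The control groups (Ctr), collected at 12, 36 and 72 h, received saline in place of pilocarpine. All animals, controls included, had scopolamine methyl nitrate and 4 mg/kg diazepam, and among pilocarpine-injected mice only those with SE entered the study. Each of the 8 groups held 3 libraries, 15 SE and 9 Ctr in all. Nothing in the labels says whether the 3 libraries of a group came from separate mice, so the p-values measure the spread between libraries, which may be technical. There was no control at 6 or 24 h, so for those groups the 3 control groups were averaged, and these comparisons share their control libraries.

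HCN channels open when a neuron becomes more negative, and the inward current they carry, Ih, pulls the membrane back towards rest. Cyclic AMP binds to the intracellular end of the subunits and makes most HCN channels open more readily. In CA1 pyramidal cells Ih is strongest in the distal dendrites, where it shortens and weakens incoming excitatory potentials, and TRIP8b governs how many channels reach the surface and their gathering in those dendrites. Hcn2 is expressed widely in the brain, Hcn3 is a sparse subunit that responds little to cyclic AMP, and Hcn4 is best known as the pacemaker subunit of the heart and of thalamic and habenular neurons.

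On the GRCm39 mouse genome, Hcn2 (ENSMUSG00000020331) lies at chr10:79552120-79571948 on the plus strand and Hcn4 (ENSMUSG00000032338) at chr9:58730132-58770458 on the plus strand. Hcn3 (ENSMUSG00000028051) lies at chr3:89053381-89067544 and Pex5l (ENSMUSG00000027674) at chr3:33002537-33197396, both on the minus strand. The canonical transcripts hold 863 codons for Hcn2, 779 for Hcn3, 1201 for Hcn4 and 650 for Pex5l. A count table can tell the genes apart only where their sequences differ. Over the whole canonical transcripts, the longest stretch shared letter for letter was 33 bases between Hcn2 and Hcn3 and 32 bases between either of them and Hcn4, while Pex5l shared at most 14 bases with any of them.

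The 3′ ends of the coding sequences are shown because TRIP8b docks on the last residues of HCN subunits as well as on their cyclic nucleotide-binding region. The last 30 coding bases before the stop codon are given 5′ to 3′, with the 3 final codons in capitals.
Hcn2, chr10:79571342-79571371: tctgcgcgctcgcgcctctctTCCAACTTG
Hcn3, chr3:89054909-89054938: cccagaggtccccaaatttctGCCAACATG
Hcn4, chr9:58768014-58768043: ccagtacgctccaaactgccgTCTAATTTA
Hcn2 and Hcn4 ended in codons for serine, asparagine and leucine, written with different bases, and Hcn3 ended in codons for alanine, asparagine and methionine. Reads were counted without strand. In the annotation, 25% of the exon bases of Hcn3 overlapped exons of Pklr on the opposite strand and 8.57% of those of Hcn2 overlapped the opposite-strand lncRNA Gm66204. For Pex5l, 3.41% overlapped the opposite-strand lncRNA Gm37459 and 0.482% the lncRNA 4930419G24Rik. Pklr and Gm66204 were not among the 18647 genes of the table, and their reads were not analysed here. Gm37459 had 129 to 1349 counts per library and 4930419G24Rik 0 to 23. Without strand, reads of a gene and of its opposite-strand neighbour cannot be told apart in these stretches. Whether such reads were counted for the gene, for its neighbour or for neither was not examined. The exon lengths used below include these stretches.

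Total counts ran from 2663936 (Ctr 72 h replicate 3) to 30133731 (SE 12 h replicate 2), with a median of 13521600. All 8 CA1 pyramidal markers were counted, with a sum of 497 to 1890 CPM (counts per 1000000, after TMM scaling of library sizes) per library against 71.2 to 393 CPM for 4 CA3 markers. The 393 CPM came from Ctr 12 h replicate 3, and every other library was at 149 CPM or below. The 6 dentate granule cell markers summed to 491 CPM in SE 72 h replicate 1, against 145 and 157 CPM in its group. This library had the lowest CA1 sum (497 CPM), 899 CPM of sensory ganglion genes, and the lowest Hcn2 and Pex5l of all libraries. The part of its make-up in these levels was not tested. Ctr 72 h replicate 2 stood apart in markers from outside the hippocampus. Its 11 sensory ganglion genes summed to 1710 CPM, against 11.2 and 72.4 CPM in the other Ctr 72 h libraries, and its thalamus and habenula markers, 7 of 8 in the table, to 141 CPM against 26 and 31.9 CPM. In 6 libraries, 5 of them SE, the sensory ganglion genes summed to at least 100 CPM. The numbers in the sample descriptions fell into 3 ranges (92 to 104, 109 to 122 and 162 to 169), whose meaning is not given. At 72 h the SE and Ctr libraries shared no range. All SE 24 h libraries lay in the range of 92 to 104, which held no Ctr library. At these times a range and SE cannot be told apart. Results that rest on Ctr 72 h replicate 2 or on the libraries high in sensory ganglion genes are given with and without them.

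Levels were compared between genes as CPM divided by the length of the merged exons (CPM per kb). In the 9 control libraries, Hcn2 had the highest level, 28.2 ± 1.53 CPM per kb (SD, n = 9). Pex5l followed with 18 ± 4.12, Hcn3 with 4.00 ± 0.488 and Hcn4 with 0.623 ± 0.428 CPM per kb. With the longest transcript as the length, Pex5l in the controls came to 34.2 CPM per kb and stood above Hcn2, so the order of these 2 genes depends on the length used. With merged exons the order was the same in each of the 8 groups, and in the 3 control groups the ranges of neighbouring genes did not overlap. After SE, Hcn2 and Pex5l overlapped at 24 and 72 h and Pex5l and Hcn3 at 12 h, so the ranges of these neighbours were not separate. Within libraries Pex5l stayed below Hcn2, at 56.4 to 59.4% of the Hcn2 level in SE 72 h and at 40.9 to 87.6% in SE 24 h. In SE 12 h replicate 2, however, Hcn3 (8.64 CPM per kb) was above Pex5l (8.28 CPM per kb). Over the 15 SE libraries the levels were 22.6 ± 4.26 CPM per kb for Hcn2, 14.6 ± 4.73 for Pex5l, 5.27 ± 1.41 for Hcn3 and 1.38 ± 0.568 for Hcn4.

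**Figure D1:**
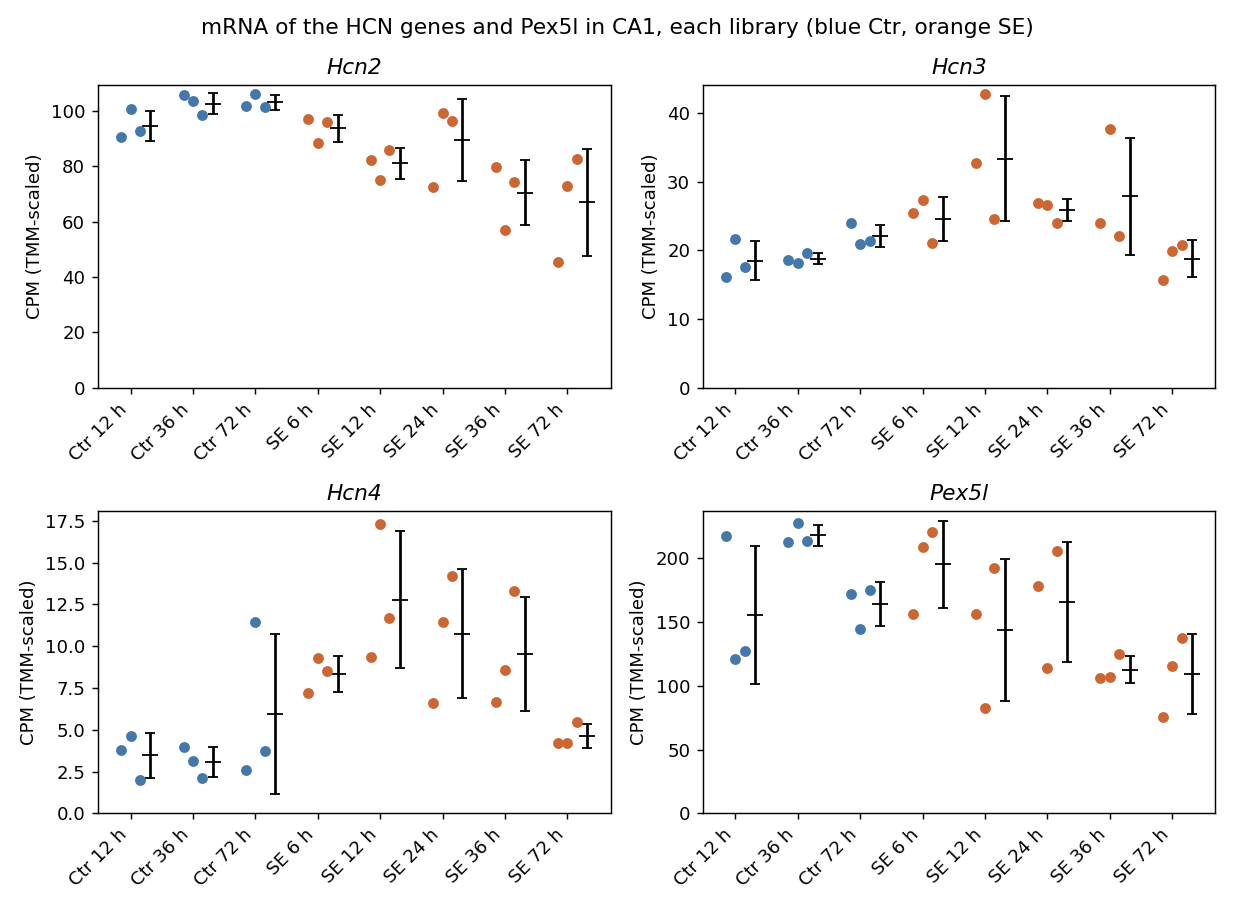
CPM (TMM-scaled, linear axes from 0) of the 4 genes in each of the 24 libraries; points are libraries, blue for Ctr and orange for SE, and the bars beside them give the mean ± SD of 3. Hcn4 lies between 6.58 and 17.3 CPM from 6 to 36 h after SE and between 2.01 and 4.63 CPM in all Ctr libraries except Ctr 72 h replicate 2 (11.4 CPM).

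Hcn4 rose from 6 to 36 h after SE and was not called at 72 h. In CPM, the control libraries held 3.79, 4.63 and 2.01 at 12 h, 3.96, 3.13 and 2.14 at 36 h, and 2.62, 11.4 and 3.75 at 72 h. The SE libraries held 7.19, 9.31 and 8.49 CPM at 6 h, 9.34, 17.3 and 11.7 at 12 h, 6.58, 11.5 and 14.2 at 24 h, 6.67, 8.59 and 13.3 at 36 h, and 4.20, 4.20 and 5.46 at 72 h. Every SE library from 6 to 36 h was above every Ctr library except Ctr 72 h replicate 2, and the SE 72 h libraries overlapped the Ctr 72 h libraries only through that same library. Without it the other 8 controls ran from 2.01 to 4.63 CPM, and SE 72 h replicate 3 (5.46 CPM) was above all of them. A gene was called when its Benjamini-Hochberg adjusted p in edgeR's quasi-likelihood test was at most 0.05 and its log2FC was at least 0.66 in either direction. By this rule Hcn4 was 3.80-fold higher in SE 12 h than in Ctr 12 h (log2FC 1.92 ± 0.37, s.e., edgeR adjusted p = 0.000397) and 3.03-fold higher in SE 36 h than in Ctr 36 h (1.60 ± 0.37, edgeR adjusted p = 0.00223). Against the mean of the 3 control groups it was 2.26-fold higher at 6 h (log2FC 1.18 ± 0.28, edgeR adjusted p = 0.00271) and 2.90-fold higher at 24 h (1.54 ± 0.28, edgeR adjusted p = 0.000178). The calls at 12 and 36 h held under all 12 other settings and without each of the 24 libraries in turn. At 6 h the call was lost with the description number range in the fit (log2FC 0.71, edgeR adjusted p = 0.0546), and at 24 h that setting lowered the log2FC to 0.88 (adjusted p = 0.0489).

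At 72 h the Hcn4 difference between SE and Ctr was −0.01 ± 0.43 on the log2 scale (edgeR adjusted p = 0.992), and its sign rested on 1 control library. Ctr 72 h replicate 2 held 67 Hcn4 counts (95% Poisson interval 51.9 to 85.1, counting error only) of 5793721, whereas replicate 1 held 31 of 11680209 and replicate 3 held 10 (4.80 to 18.4) of 2663936. Without Ctr 72 h replicate 2 the log2FC was 0.62 ± 0.45 (adjusted p = 0.336) and without replicate 1 it was −0.59 ± 0.46 (adjusted p = 0.363). With the description number range in the fit it was −1.0 ± 0.44 (adjusted p = 0.136). When only the libraries under 100 CPM of sensory ganglion genes were kept, which left 1 SE 72 h library assumed to vary like the other groups, it was 0.88 ± 0.55 (adjusted p = 0.332). In SE 36 h replicate 3, the highest in Hcn4 of its group, the thalamus and habenula markers also summed highest of their group (91.5 CPM against 35.4 and 46.0), as did the sensory ganglion genes (798 CPM against 9.85 and 10.1). Other groups were mixed. In SE 12 h, replicate 1 had the lowest Hcn4 (9.34 CPM) and the highest thalamus and habenula sum (71.1 CPM against 30.2 and 33.6). Its sensory ganglion sum was also the highest of that group (639 CPM against 15.8 and 14.7). In SE 24 h the library highest in Hcn4 (14.2 CPM) had the lowest thalamus and habenula sum (48.3 CPM against 54.5 and 54.6). That library had the highest sensory ganglion sum of SE 24 h (49.0 CPM against 12.0 and 12.1). In the SE 72 h libraries the thalamus and habenula sum was 85.5 to 115 CPM while Hcn4 was at 4.20 to 5.46 CPM. Keeping only the libraries under 100 CPM of sensory ganglion genes, Hcn4 stayed called at 6, 12, 24 and 36 h (log2FC 1.38, 2.11, 1.77 and 1.30). The 8 interneuron markers, all counted, were also high over these times when summed. Their sum was 588 to 928 CPM over the 9 Ctr libraries, 961 to 1540 CPM over the 12 SE libraries from 6 to 36 h, and 511 to 831 CPM in SE 72 h. Of these 8 markers, 2 were called higher in each of the 6, 12 and 24 h comparisons and 1 in that of 36 h, and for 72 h 1 was higher and 3 were lower. The part of interneurons, and of cells from outside CA1, in the level of Hcn4 was not tested.

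**Figure D2:**
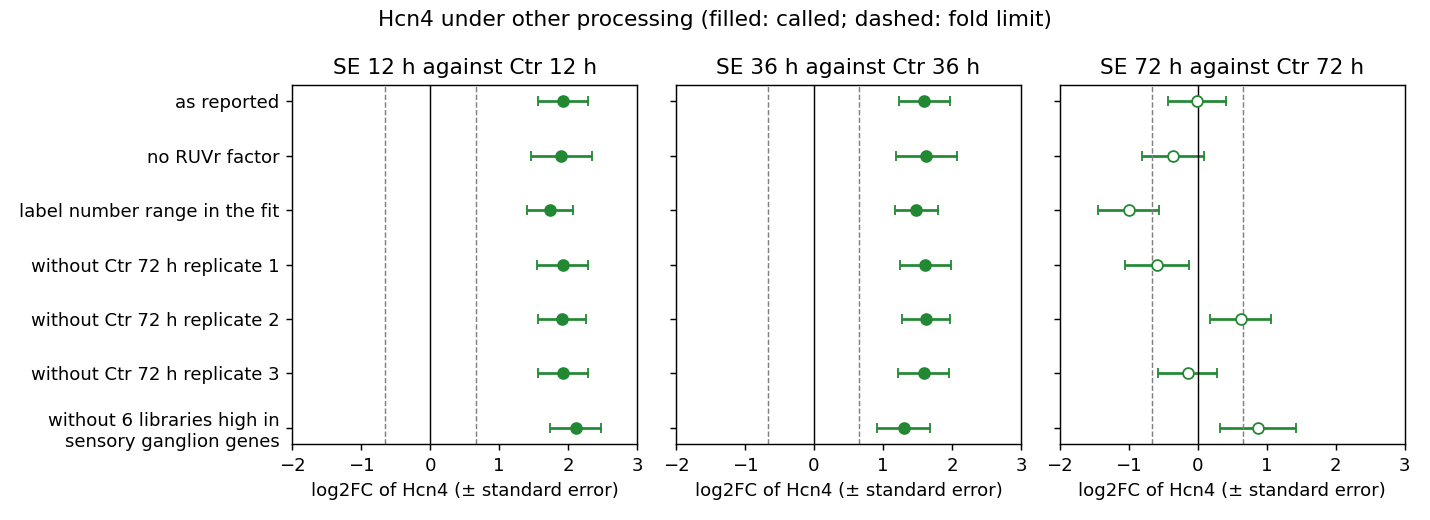
log2FC of Hcn4 between SE and Ctr at 12, 36 and 72 h, as reported and under 6 other settings or sets of libraries; points with bars give the log2FC ± standard error, filled where called, and dashed lines mark the fold limit of 0.66. The 12 and 36 h values stay between 1.30 and 2.11, while at 72 h they run from −1.0 to 0.88.

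Hcn3 rose at 12 h. The Ctr 12 h libraries held 16.2, 21.6 and 17.6 CPM of Hcn3 and the SE 12 h libraries 32.7, 42.8 and 24.6 CPM. The groups did not overlap, and the SE libraries spread more widely than the controls. Hcn3 was 1.81-fold higher (log2FC 0.86 ± 0.20, edgeR adjusted p = 0.00191). Without SE 12 h replicate 2, the highest library, the log2FC was 0.64 ± 0.20 (edgeR adjusted p = 0.0186), below the fold limit, so the call rested on that library. At 36 h the Ctr libraries held 18.6, 18.2 and 19.6 CPM and the SE libraries 23.9, 37.7 and 22.1 CPM. That difference passed the adjusted p threshold but not the fold limit (log2FC 0.56 ± 0.20, edgeR adjusted p = 0.0343). It rested on SE 36 h replicate 2, the highest library, without which the log2FC was 0.29 and did not pass the test. It passed the fold limit without SE 36 h replicate 3 (0.71), with libraries scaled by their totals only (0.69), and among the libraries under 100 CPM of sensory ganglion genes (0.72). At 72 h Hcn3 was at 24.0, 21 and 21.4 CPM in Ctr and 15.7, 19.9 and 20.8 CPM in SE (log2FC −0.25 ± 0.20, edgeR adjusted p = 0.392). At 6 h it was at 25.4, 27.3 and 21.1 CPM (log2FC 0.31 ± 0.16 against the 3 control groups, edgeR adjusted p = 0.129), and at 24 h at 27.0, 26.6 and 24.0 CPM (0.39 ± 0.16, edgeR adjusted p = 0.0558).

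Hcn2 was lower in the later SE libraries, by less than the fold limit. All 9 Ctr libraries lay between 90.5 and 106 CPM. The SE libraries held 97.1, 88.3 and 95.9 CPM at 6 h, 82.5, 75.0 and 85.8 at 12 h, 72.4, 99.4 and 96.5 at 24 h, 79.9, 57.1 and 74.4 at 36 h, and 45.3, 72.8 and 82.7 at 72 h. Every SE library at 12, 36 and 72 h was below every Ctr library, while the 6 and 24 h libraries overlapped the controls. The log2FC of Hcn2 was −0.22 ± 0.16 at 12 h (edgeR adjusted p = 0.300), −0.54 ± 0.17 at 36 h (edgeR adjusted p = 0.0161) and −0.62 ± 0.17 at 72 h (edgeR adjusted p = 0.00880), which at 72 h is 0.649 of the Ctr level. Neither 36 h nor 72 h reached the limit of 0.66. The 72 h value passed it without SE 72 h replicate 3 (−0.81), without replicate 2 of that group (−0.69) and in limma-voom (−0.67). Those left-out libraries were the higher ones of SE 72 h. Without replicate 1, the lowest (45.3 CPM), Hcn2 was not called at 72 h. Among the libraries under 100 CPM of sensory ganglion genes, which left 1 SE 72 h library, the log2FC was −0.30 ± 0.20. The log2FC at 6 h was −0.09 ± 0.14 and at 24 h −0.16 ± 0.14, with edgeR adjusted p = 0.613 and 0.368. In bulk tissue, fewer cells of a type and less RNA per cell cannot be told apart. The 8 neuronal markers summed to 7180 to 9479 CPM in Ctr 12 h and 5513 to 6388 CPM in SE 12 h, and to 7645 to 8737 CPM in Ctr 72 h and 5193 to 5607 CPM in SE 72 h. Of these 8 markers 2 were called lower at 12 h, 2 at 36 h and 2 at 72 h, and their part in the level of Hcn2 was not tested.

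Pex5l fell at 36 h. The Ctr 36 h libraries held 213, 228 and 214 CPM of Pex5l and the SE 36 h libraries 106, 107 and 125 CPM, with a wide gap between them. Pex5l in SE 36 h was at 0.517 of Ctr 36 h (log2FC −0.95 ± 0.28, edgeR adjusted p = 0.0124), and the call held under all 12 other settings and without each of the 24 libraries. The controls themselves differed between times. Ctr 12 h held 218, 121 and 127 CPM and Ctr 72 h 172, 144 and 175 CPM, so that 5 of these 6 libraries were below all of Ctr 36 h, although Ctr 36 h against Ctr 12 h was not called (log2FC 0.49 ± 0.28, edgeR adjusted p = 1). At 72 h the SE libraries held 75.6, 115 and 138 CPM, each below the Ctr 72 h libraries, and the log2FC of −0.59 ± 0.28 did not pass the test (edgeR adjusted p = 0.126). Without Ctr 72 h replicate 2 it did (−0.69 ± 0.22, edgeR adjusted p = 0.0276). At 12 h the SE libraries held 156, 82.6 and 192 CPM and overlapped the controls (log2FC −0.11 ± 0.28, edgeR adjusted p = 0.779). The 6 h libraries (157, 209 and 221 CPM) and the 24 h libraries (178, 114 and 206 CPM) overlapped the controls as well, with log2FC of 0.14 ± 0.22 and −0.09 ± 0.23.

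The CA1 pyramidal markers were lower together with Pex5l at 36 h, but not in step with it at every time. Their sum was 1782 to 1890 CPM in Ctr 36 h, against 926 to 1460 CPM in Ctr 12 h and 1150 to 1379 CPM in Ctr 72 h, and it was 843 to 1076 CPM in SE 36 h. Of the 8 markers, 5 were called lower at 36 h (median log2FC −1.15), 2 at 72 h (−0.74) and 0 at 12 h (−0.39), and none was at 0 in all libraries. At 24 h 3 of 8 were called lower (median log2FC −0.59) while Pex5l had a log2FC of −0.09, and in SE 6 h their sum was 974 to 1258 CPM while Pex5l was at 157 to 221 CPM. The part of CA1 pyramidal cell number or identity in the fall of Pex5l was not tested.

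**Figure D3:**
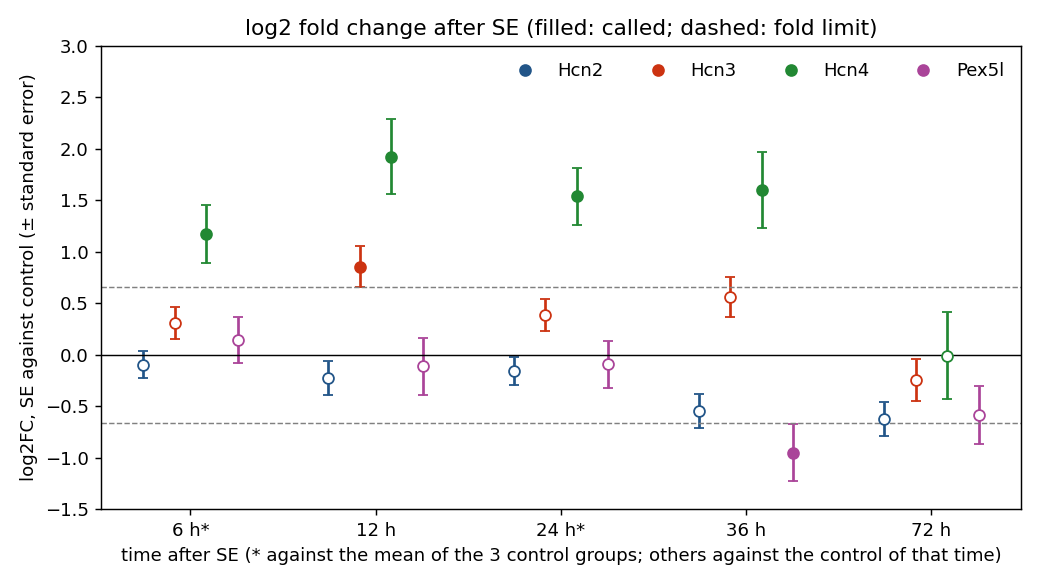
log2FC of the 4 genes between SE and Ctr at 5 times; points with bars give the log2FC ± standard error, filled where called, asterisks mark the times for which all 3 control groups were averaged, and dashed lines mark the fold limit of 0.66. Hcn4 is called at 6, 12, 24 and 36 h, Hcn3 at 12 h and Pex5l at 36 h, and Hcn2 drifts from −0.09 at 6 h to −0.62 at 72 h.

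Counted over the genes, 2 of 4 were called at 12 h, both higher, where 25.2% of the 18153 genes tested were called. At 36 h 2 of 4 were called, Hcn4 higher and Pex5l lower, against 21.6% of all genes. None of the 4 was called at 72 h by edgeR, against 19.4% of all genes, although 2 had an unadjusted p under 0.05, and DESeq2 called 0 and limma-voom 1. Hcn4 was the 1 gene of 4 called at 6 h, against 22% of all genes, and the 1 of 4 at 24 h, against 24.1%. With the 5 SE groups averaged against the 3 control groups, Hcn4 was again the 1 gene called (2.37-fold, log2FC 1.25 ± 0.20, edgeR adjusted p = 2.87e-05), against 24.3%. In that comparison Hcn2 (−0.33 ± 0.08, edgeR adjusted p = 0.00271) and Hcn3 (0.37 ± 0.10, edgeR adjusted p = 0.00482) passed the adjusted p threshold but not the fold limit, and Pex5l passed neither (−0.32 ± 0.14, edgeR adjusted p = 0.0622). Taken over the 4 genes, the log2FC had a median of 0.37 for 12 h, 0.01 for 36 h and −0.42 for 72 h, beside 0.01, 0.00 and 0.10 over all genes tested.

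Among the controls, edgeR called 0 of the 4 genes between any 2 times, as did DESeq2 and limma-voom, and 0 had an unadjusted p under 0.05. Over all genes tested, 0% were called between Ctr 36 h and Ctr 12 h (edgeR 0 genes, DESeq2 3, limma-voom 0, and 648 at an unadjusted p under 0.05), 1.96% for Ctr 72 h against Ctr 36 h, and 0.931% for Ctr 72 h against Ctr 12 h.

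Between successive SE times the fold limit was a log2FC of 1, and none of the 4 genes was called by edgeR. The share of all genes called was 1.34% between 6 and 12 h, 3.18% between 12 and 24 h, 0.529% between 24 and 36 h and 4.13% between 36 and 72 h. The number of the 4 genes with an unadjusted p under 0.05 was 1, 0, 1 and 2 in that order, and DESeq2 called 0, 0, 0 and 1 and limma-voom 0 throughout. From 36 to 72 h Hcn4 went from 9.53 ± 3.43 to 4.62 ± 0.726 CPM (SD, n = 3), with no overlap of the libraries (log2FC −1.0 ± 0.36, edgeR adjusted p = 0.0808), and DESeq2 called it (−1.01, DESeq2 adjusted p = 0.0470). Hcn3 went from 27.9 ± 8.53 to 18.8 ± 2.72 CPM (log2FC −0.57 ± 0.20, edgeR adjusted p = 0.0740).

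Whether the response to SE itself differed between times was tested as an interaction, with no fold limit. Between 12 and 72 h the response was smaller at 72 h for 2 of the 4 genes, where 22.2% of all genes were called. It dropped by 1.93 on the log2 scale for Hcn4 (s.e. 0.54, edgeR adjusted p = 0.0150) and the change for Hcn3 was −1.11 (s.e. 0.28, edgeR adjusted p = 0.00923). The Hcn4 value rested on Ctr 72 h replicate 2, without which it was −1.29 ± 0.56 (edgeR adjusted p = 0.114), while that of Hcn3 was −1.12 ± 0.30 without it (edgeR adjusted p = 0.0140). Keeping only the libraries under 100 CPM of sensory ganglion genes, with 1 SE 72 h library left, neither passed (Hcn4 −1.23, edgeR adjusted p = 0.257, and Hcn3 −0.99, edgeR adjusted p = 0.0782). For Hcn2 the interaction was −0.40 ± 0.23 and for Pex5l −0.47 ± 0.39 (edgeR adjusted p = 0.229 and 0.408). Between 12 and 36 h none of the 4 was called by edgeR, against 3.84% of all genes, with 1 at an unadjusted p under 0.05 (Pex5l, −0.84 ± 0.39, edgeR adjusted p = 0.232) and 0 by DESeq2 or limma-voom. Between 36 and 72 h none was called by edgeR, against 5.36%, with 2 at an unadjusted p under 0.05 (Hcn4, −1.61 ± 0.54, edgeR adjusted p = 0.0848, and Hcn3, −0.81 ± 0.28, edgeR adjusted p = 0.0970), and DESeq2 called 1, Hcn4.

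The levels of Hcn3 and Hcn4 relative to Hcn2 differed between SE and Ctr libraries at 12 and 36 h. They leave out the remaining HCN gene and so do not give the make-up of all HCN mRNA. Taken per length within each library, a quantity that no scaling between libraries can alter, Hcn3 was at 12.6 to 16.9% of the Hcn2 level in the 9 Ctr libraries (median 14.2%) and at 15.8 to 47.3% in the 15 SE libraries (median 21.2%). At 72 h it was at 18 to 24.8% in SE and 14.2 to 16.9% in Ctr, with no overlap, while the log2FC of Hcn3 itself was −0.25. Hcn4 was at 1.15 to 5.71% of Hcn2 in Ctr (median 1.96%) and at 3.06 to 12.2% in SE (median 5.60%). By group, the mean share of Hcn4 was 1.94 ± 0.691% in Ctr 12 h against 8.51 ± 3.30% in SE 12 h, 1.58 ± 0.419% in Ctr 36 h against 7.31 ± 2.61% in SE 36 h, and 3.01 ± 2.36% in Ctr 72 h against 3.83 ± 0.972% in SE 72 h (SD, n = 3). At 72 h the SE libraries were at 4.92, 3.06 and 3.50% and the Ctr libraries at 1.37, 5.71 and 1.96%, so that Ctr 72 h replicate 2 alone was above the SE libraries. Pex5l ran from 42.8 to 85.7% of Hcn2 in Ctr and from 39.2 to 87.6% in SE, and the groups of the same time overlapped at 12 and 72 h but not at 36 h (71.6 to 78.1% in Ctr, 47.2 to 66.6% in SE). These ratios are descriptions and were given no test.

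**Figure D4:**
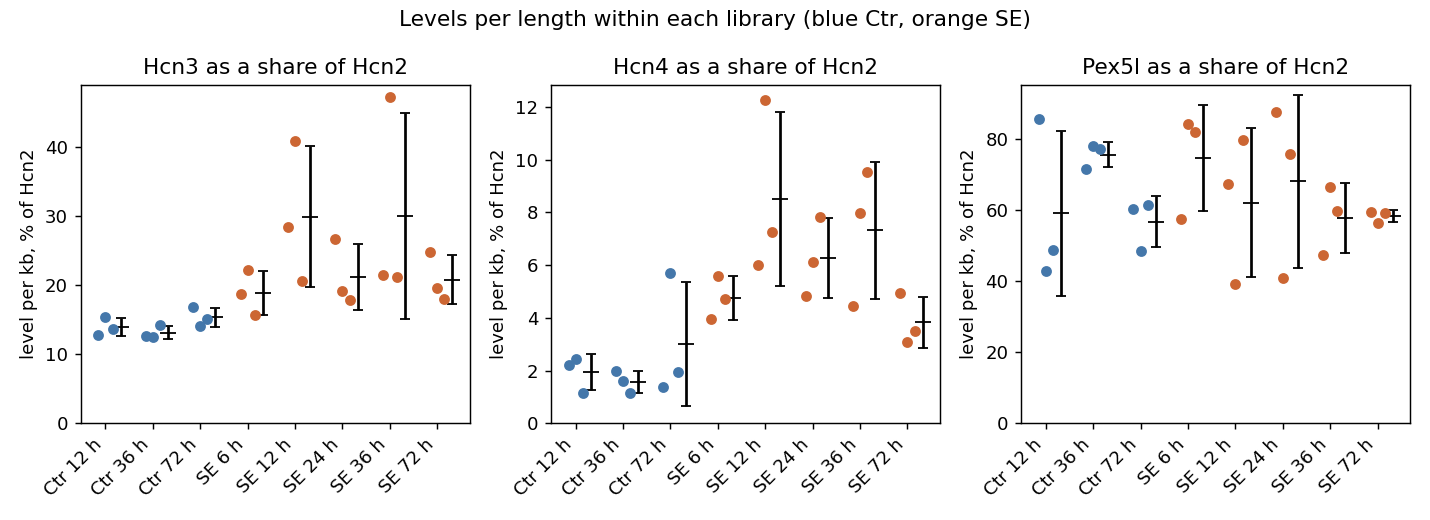
Level per kb of Hcn3, Hcn4 and Pex5l as a percentage of the Hcn2 level in the same library (linear axes from 0); points are libraries, blue for Ctr and orange for SE, and bars give the mean ± SD of 3. Hcn3 and Hcn4 shares are higher in the SE libraries at 12 and 36 h, and that of Hcn3 also at 72 h, while the Pex5l share overlaps at 12 and 72 h and is lower after SE at 36 h.

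Across all 24 libraries, Hcn3 and Hcn4 had a Pearson r of 0.64 in log2 CPM and Hcn2 and Pex5l an r of 0.65, and the 4 mixed pairs lay between −0.27 and −0.16. These points share libraries, groups and the dissection, and the values are given as a description.

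The other genes of the pathway were read from lists, which were chosen with earlier results of these data known. Of the HCN partner genes, 10 were tested. At 12 h 4 of 10 were higher and 0 lower (median log2FC 0.48, beside 0.01 over all genes), at 36 h 2 were higher and 0 lower, and at 72 h likewise. Of all genes 25.2%, 21.6% and 19.4% were called at these times in either direction, and 13.9%, 12.7% and 15.2% were called higher. The 2 of 10 is near the share in either direction. Flna, the actin crosslinker filamin A, was higher at 12, 36 and 72 h (log2FC 1.72 ± 0.25, 1.53 ± 0.25 and 1.21 ± 0.25). Tamalin, a postsynaptic scaffold, was higher at 12 h (1.48 ± 0.40). Reln, the secreted protein reelin, was also higher at 12 h (1.43 ± 0.24). Irag2, an endoplasmic reticulum protein first described in lymphoid cells and known to modulate HCN4, was called at all 3 times, with log2FC of 0.98 ± 0.31, 1.12 ± 0.30 and 3.76 ± 0.39. At 72 h 6 of 6 microglia markers were called higher as well, and their summed level was 844 to 1258 CPM in SE against 262 to 346 CPM in Ctr. The part of microglia in Irag2 was not tested. Partners with log2FC near 0 included Kctd3, a cytosolic regulator of HCN3 (0.04 ± 0.13 at 12 h), and Vapb, an endoplasmic reticulum tether (−0.19 ± 0.09).

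The enzymes that make and break cyclic nucleotides, which set the cyclic AMP and cyclic GMP that HCN channels sense, included genes called in both directions. Of 30 tested, 6 were higher and 6 lower at 12 h, 4 higher and 5 lower at 36 h, and 2 higher and 3 lower at 72 h, beside 25.2%, 21.6% and 19.4% of all genes called. The 5 of 30 called at 72 h lie below that share. Among the adenylyl cyclases, Adcy1, a neuronal calcium-stimulated cyclase, was lower at 12 h (log2FC −0.96 ± 0.20) and 36 h (−0.93 ± 0.20), and Adcy9 was lower at the same times (−0.94 ± 0.30 and −1.29 ± 0.30). Adcy4 was higher at 12 h (1.71 ± 0.29) and 36 h (1.71 ± 0.29), and Adcy7 at 36 h (0.71 ± 0.23) and 72 h (0.96 ± 0.23). Of the soluble guanylyl cyclase subunits, Gucy1a1 was lower at all 3 times (−1.29 ± 0.31, −1.59 ± 0.31 and −1.04 ± 0.31) and Gucy1a2 higher at 12 h (1.52 ± 0.37). Of the phosphodiesterases, Pde11a was lower at all 3 times (−1.79 ± 0.42, −1.55 ± 0.42 and −1.31 ± 0.42), Pde4d was lower at 72 h (−0.66 ± 0.15), Pde2a was higher at 12 h (1.42 ± 0.44), Pde9a, which breaks down cyclic GMP, was higher at 12 and 36 h (0.76 ± 0.24 and 1.31 ± 0.24), and Pde3b was higher at all 3 times (1.02 ± 0.15, 0.94 ± 0.15 and 1.46 ± 0.16). Keeping only the libraries under 100 CPM of sensory ganglion genes, 2 of these enzymes were called at 72 h in place of 5.

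The nearest relatives of the HCN genes, the cyclic nucleotide-gated (CNG) and ether-à-go-go (EAG) family channel genes, had a median log2FC of −0.32 for 12 h, −0.30 for 36 h and −0.31 for 72 h. Of 11 tested, 1 was higher and 4 lower at 12 h, 0 higher and 3 lower at 36 h, and 0 higher and 2 lower at 72 h, where 25.2%, 21.6% and 19.4% of all genes were called. The counts at 36 and 72 h are near these shares, which take both directions together. All of those called at 36 and 72 h were lower, where 8.91% and 4.2% of all genes were called lower. Kcnh1, a voltage-gated potassium channel of the EAG group, was higher at 12 h (log2FC 1.05 ± 0.29). Kcnh3, of the ELK group, was lower at 12 and 36 h (−1.16 ± 0.18 and −0.85 ± 0.18). Kcnh7, of the ERG group, was lower at all 3 times (−0.69 ± 0.25, −0.87 ± 0.25 and −1.0 ± 0.25). Without Ctr 72 h replicate 2, 0 of the 11 were called at 72 h. The falls of Kcnh8 at 12 h (−2.60 ± 0.96), of Kcnh4 at 12 h (−1.19 ± 0.34) and of Cnga4 at 36 and 72 h (−1.22 ± 0.46 and −1.64 ± 0.46) came from genes averaging 1.15, 3.65 and 1.34 CPM. Of the 10 peroxisomal import genes, the family of receptors and docking proteins that lent Pex5l its name, 1 was higher and 1 lower at 12 h and none was called at 36 or 72 h by edgeR, where 1 and 4 had an adjusted p under 0.05 below the fold limit. Pex5, the peroxisomal import receptor, was higher at 12 h (log2FC 0.69 ± 0.16) and Pex7, its partner receptor, was lower (−0.94 ± 0.16), while Pex5l at that time had a log2FC of −0.11 ± 0.28. At 36 h, when Pex5l was called lower, Pex5 had a log2FC of −0.04 ± 0.16.

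The genes whose log2 CPM followed each of the 4 most closely over the 24 libraries, among 10882 candidates, are given with Pearson r and no test. For Hcn4 they were Rps6ka3 (0.89), Eif3b (0.89) and Klf5 (0.88), and for Hcn3 they were Ptp4a3 (0.85), Tspan9 (0.83) and Rbm18 (0.82). For Hcn2 they were Brsk1 (0.91), Scrt1 (0.87) and Camkk2 (0.85). For Pex5l they were Pou3f1 (0.88), Gpr161 (0.85) and Zfp385b (0.83), of which Pou3f1 and Gpr161 stand among the 8 CA1 pyramidal markers. By Spearman rho, 0 of the 3 genes nearest to Hcn2 were the same, and 1 of 3 for each of the others.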

How the data were processed

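Per the labels and the methods of the study, the authors made polyA libraries (TruSeq RNA v2, unstranded, paired-end), trimmed reads with Trim Galore 0.6.6, aligned them to GRCm39 with STAR 2.7.8a (SAMtools 1.10), and counted pairs per GENCODE gene with HTSeq 0.13.5, merging lanes and filtering low counts. The deposited values are whole-number counts per gene without normalization, for 18647 genes. Of their identifiers, 18552 matched a symbol of the newer GENCODE annotation of GRCm39 used here for names and exon lengths.

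Counts were scaled by TMM and tested in edgeR 4.0.16 (R 4.3.3) by the quasi-likelihood test, and p-values were adjusted (Benjamini-Hochberg) across all 18153 genes passing filterByExpr. The fit over all 24 libraries held the 8 groups and 1 factor of unwanted variation (RUVr) from the residuals. This factor was 0.802 in Ctr 72 h replicate 2, −0.378 in replicate 1 and −0.368 in replicate 3. In all other libraries it lay between −0.098 and 0.140, so it followed mainly the differences within Ctr 72 h. Without the factor, 2851 genes were called at 72 h in place of 3527. Standard errors are |log2FC| over the square root of F. Alternatives were DESeq2 1.42.0, limma 3.58.1 (voom), other scalings, filters, blocks and libraries. The fit was tested on simulated data. The 4 genes and the lists were chosen with earlier results of these data known. Named list genes are at most 3 called per direction in a comparison with its own control, plus partners whose role is described; named like genes are the 3 highest by Pearson r with mean log2 CPM of at least 3 (prior count 2). The remaining HCN gene is not reported here.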

Additional observations from a re-analysis of the deposited data

Results flagged for a closer look

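The Hcn4 level of Ctr 72 h replicate 2, 11.4 CPM, lay far above those of the other 8 control libraries: its gap to the nearest of them was 0.722 of the whole range of the 9, where 0.493 is the limit. About 1 in 20 groups passes such a limit by chance. Without that library the 72 h difference of Hcn4 was 0.62 on the log2 scale in place of −0.01.

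The response to SE differed between 12 and 72 h in Hcn3 (difference of log2FC −1.11, edgeR adjusted p = 0.00923) and in Hcn4 (−1.93, edgeR adjusted p = 0.0150). In 3 of 3 SE 12 h libraries Hcn3 was above every Ctr 12 h library, and in 3 of 3 SE 72 h libraries it was below every Ctr 72 h library. The Hcn4 difference was not called without Ctr 72 h replicate 2.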

How the results depend on the processing

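The counts of the 4 genes called were recomputed under 12 other settings, with no fold limit, and without each library in turn. At 12 h, leaving out single libraries gave 1 to 2. At 36 h, dropping the fold limit gave 4, and keeping the libraries under 100 CPM of sensory ganglion genes (chosen after seeing the data) gave 3. At 72 h, limma-voom and no fold limit gave 1 each, and leaving out single libraries gave 0 to 1. At 6 h, the description number range gave 0. With all SE groups averaged, no fold limit gave 3. Between SE 36 and 72 h DESeq2 gave 1. In the interactions, 72 against 36 h gave 1 under DESeq2 and under the number range and 0 to 1 without single libraries, and 72 against 12 h gave 1 with the compared groups only, 0 under 100 CPM of sensory ganglion genes, and 1 to 2 without single libraries. No other count moved by more than 1.5 times. The cause was not tested, except that fewer libraries entered some fits.

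Samples with the same replicate number did not deviate together: the correlation within a time ran from −0.20 to 0.18 over 9 pairs, and was −0.004 on average over 84 same-number pairs of different groups. With a replicate block the members called were 2, 2 and 0 at 12, 36 and 72 h, as without it, and no call of the 4 genes changed. Scaling by library totals shifted the median log2FC of all genes at 36 h from 0.00 to 0.13, where Hcn3 moved from 0.56 to 0.69. Of the levels per length, those on the longest transcript moved beyond 1 SD for Hcn3 in Ctr (4.90) and for Pex5l (34.2 in Ctr, 27.8 in SE). In the 72 h controls, 2663936 to 11680209 total counts limit what can be said of Hcn4.

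Over all genes, the number called at 72 h was 3527 as reported, 1520 with the compared groups only, 1892 with at least 10 counts in every library and 2269 under 100 CPM of sensory ganglion genes, and the 72 against 12 h interaction had 4028, 1612 with the compared groups only and 2514 under 100 CPM. Fewer genes or libraries entered these fits. Requiring 10 counts also gave 2492 for 3924 at 36 h, 2190 for 3994 at 6 h, 2497 for 4377 at 24 h and 2005 for 4418 with all SE groups averaged. Over all settings and left-out libraries, the count between SE times ran from 0 to 409 for 6 to 12 h (244 as reported), down to 46 for 12 to 24 h (578), 1 to 292 for 24 to 36 h (96) and down to 371 for 36 to 72 h (750). It ran from 211 to 1458 for the 36 against 12 h interaction (697), 203 to 1909 for 72 against 36 h (973), 0 to 3 for Ctr 36 against 12 h (0), 0 to 1520 for Ctr 72 against 36 h (356) and 0 to 1188 for Ctr 72 against 12 h (169). Among recomputed counts of list genes, 40 moved by more than 1.5 times and 824 did not. The counts of related channel genes called at 12 h were 1 to 3 in 8 of these against 5 as reported, and those of HCN partner genes at 12 h were 2 with the number range against 4.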
